A study of Homo sapiens with 21 samples.

Results

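The genes described here encode subunits of the mitochondrial respiratory chain and ATP synthase, measured in cultured BJ cells, a human skin fibroblast line with a limited number of divisions. The sample labels give the molecule as genomic DNA, but their protocol describes libraries from poly(A) RNA, so the counts were read as RNA. Members were taken by name among the protein-coding genes of the deposited count table: the NDUFA, NDUFB, NDUFC, NDUFS and NDUFV genes of complex I, SDHA to SDHD of complex II, the UQCR genes of complex III, COX4 to COX8 of complex IV, the ATP5 genes of complex V, and the MT-ND, MT-CO, MT-CYB and MT-ATP genes of the mitochondrial genome. This gave 102 of the 61544 genes listed. Of these, 89 lie in the nuclear genome (37 for complex I, 4 for complex II, 9 for complex III, 19 for complex IV and 20 for complex V), and 13 in the mitochondrial genome (7, 0, 1, 3 and 2). NDUFA4 and NDUFA4L2 carry complex I names but belong to complex IV and were placed there. The naming rule uses no measured value.

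The libraries form 7 groups of 3. Untreated BJ cells were taken at P3, P11, P24, P30 and P33 (P, passage). The other 2 groups are BJ cells at P11 that received either DOX at 50 ng/ml (doxorubicin, a topoisomerase poison, by the series title) or DMSO, its solvent. The cells carry no transgene or deletion by their labels, and no label states how long the treatment lasted. By its title, the study asked which changes senescence by repeated division shares with senescence by doxorubicin. Nothing in the labels marks replicates as separate cultures. A p-value here measures only the spread between libraries, which may be technical.

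The respiratory chain passes electrons from NADH through complex I, or from succinate through complex II, to ubiquinone, then through complex III and cytochrome c to complex IV, which reduces oxygen. Complexes I, III and IV pump protons, and complex V lets them flow back to make ATP. Both genomes contribute to every complex except complex II, which is wholly nuclear. Mitochondrial DNA encodes hydrophobic core subunits, copied as long transcripts that are cut into mRNAs. Nuclear genes encode the remaining core subunits and all accessory ones. Each of the 13 mitochondrial genes is called an mRNA here, although MT-ATP8 and MT-ATP6 share a transcript, as do MT-ND4L and MT-ND4.

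Totals ran from 12.946 to 27.194 M counts per library, and levels are given as CPM, counts scaled to library size with TMM factors. The filter on low counts kept 94 members, all 13 mitochondrial ones and 81 nuclear ones. The 8 left out were COX4I2, COX6A2, COX6B2, COX7B2, COX8C, ATP5MGL, ATP5MF-PTCD1 and NDUFC2-KCTD14. Another 12 nuclear members (NDUFA7, NDUFA9, NDUFA11, NDUFB5, NDUFB8, NDUFC2, SDHA, SDHD, UQCR11, COX8A, ATP5MF and ATP5PO) passed through the DOX and DMSO libraries but were at or near 0 in the passage libraries. All 12 overlap another gene on the same strand. The passage part was counted differently: of 9429 genes nested within a gene of their own strand, 0 had reads in the passage libraries, while 3950 had reads with DOX or DMSO. Levels are therefore not compared between the 2 parts, and passage results rest on 69 nuclear members. Fibroblast markers summed to 13972 to 25274 CPM in the passage libraries and 38949 to 43038 CPM with DOX or DMSO. Fibroblast markers were lowest at P33. In all groups, summed endothelial and leukocyte markers stayed at or below 2.61 CPM, and the keratinocyte list summed to 162 to 441 CPM. KRT5, a defining gene of the keratinocyte list, was at 0 in every library, and KRT1 had reads only with DOX. KRT14 had reads in every group but P30 and DMSO, and KRT10, DSP and CDH1 had reads in every group. Melanocyte markers, almost wholly MITF by level, had sums of 80.8 to 83.3 CPM with DMSO against 56.0 to 57.4 CPM with DOX. Among the passages their sum was highest at P30 (71.8 to 75.7 CPM), 40.1 to 40.9 CPM at P33 and 26.4 to 46.0 CPM in the earlier groups (30.2 to 32.5 CPM in P3 libraries). TYR, a defining gene of that list, was at 0 in every passage and DMSO library, and the 2 of its 5 genes that were tested (MITF and PMEL) fell with DOX. The part of these markers in the results was not tested.

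Promoters are shown for 1 gene of each complex, because short letter patterns bound by NRF1, ETS-family factors (such as GABPA) and YY1 are the textbook shared features of these genes. RefSeq windows from 250 bases before to 50 bases after the gene start (GRCh38.p14) were matched by symbol for 70 of the 89 nuclear members. The patterns searched on both strands were GCGCA, any base and GCGC for NRF1, CCGGAAG for ETS factors and AAGATGGC for YY1. The ETS letters end in the AAG with which the YY1 letters begin, so those can overlap. A gene with more than 1 window was scored as matched if any of them held the letters. NRF1 letters were present in 17 members (24.3% against 9.66% of all 15842 protein-coding genes with a window). ETS letters were present in 21 (30% against 16.5%) and YY1 letters in 12 (17.1% against 4.67%). At least 1 of the 3 was in 41 members, 58.6% against 26.9%. The GC box GGGCGG was in 64.3% of members and 64.3% of all genes with a window, and CCAAT in 37.1% against 42.1%. Capitals mark the matched letters, 5′ to 3′ in the gene's direction. NDUFA12 (complex I, NRF1 letters, higher at late passage) lies at chr12:95003648-95003947 (minus strand), SDHB (complex II, ETS then YY1) at chr1:17053983-17054282 (minus strand), UQCR10 (complex III, NRF1) at chr22:29767119-29767418 (plus strand), COX5B (complex IV, 2 ETS matches) at chr2:97645812-97646111 (plus strand) and ATP5PB (complex V, YY1 letters read on the other strand) at chr1:111449214-111449513 (plus strand).
NDUFA12: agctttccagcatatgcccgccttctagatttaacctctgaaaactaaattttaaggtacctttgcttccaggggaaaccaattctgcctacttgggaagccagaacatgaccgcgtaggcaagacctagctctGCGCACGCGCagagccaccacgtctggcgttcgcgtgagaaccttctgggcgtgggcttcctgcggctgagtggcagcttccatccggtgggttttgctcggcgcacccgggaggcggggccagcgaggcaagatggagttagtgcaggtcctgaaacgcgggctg
SDHB: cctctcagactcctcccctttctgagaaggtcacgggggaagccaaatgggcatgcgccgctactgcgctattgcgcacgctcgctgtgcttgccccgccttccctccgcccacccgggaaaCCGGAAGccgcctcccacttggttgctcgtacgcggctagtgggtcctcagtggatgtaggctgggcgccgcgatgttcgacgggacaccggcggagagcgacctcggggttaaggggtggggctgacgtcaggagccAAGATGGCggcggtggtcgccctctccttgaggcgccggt
UQCR10: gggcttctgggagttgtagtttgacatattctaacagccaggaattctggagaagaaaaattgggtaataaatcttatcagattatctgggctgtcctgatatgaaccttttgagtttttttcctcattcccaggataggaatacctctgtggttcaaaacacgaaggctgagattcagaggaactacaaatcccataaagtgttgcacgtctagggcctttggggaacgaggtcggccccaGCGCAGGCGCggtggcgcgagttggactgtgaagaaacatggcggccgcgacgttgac
COX5B: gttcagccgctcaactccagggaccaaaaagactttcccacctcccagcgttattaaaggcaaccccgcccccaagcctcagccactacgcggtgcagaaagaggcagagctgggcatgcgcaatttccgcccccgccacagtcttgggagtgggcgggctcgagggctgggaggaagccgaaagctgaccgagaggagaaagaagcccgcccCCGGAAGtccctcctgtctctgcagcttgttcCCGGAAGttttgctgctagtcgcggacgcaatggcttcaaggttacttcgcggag
ATP5PB: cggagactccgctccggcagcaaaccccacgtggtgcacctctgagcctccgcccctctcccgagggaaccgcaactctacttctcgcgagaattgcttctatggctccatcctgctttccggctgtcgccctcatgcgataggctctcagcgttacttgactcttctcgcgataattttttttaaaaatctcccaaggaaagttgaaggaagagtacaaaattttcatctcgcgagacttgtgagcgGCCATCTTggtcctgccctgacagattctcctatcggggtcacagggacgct

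Passage P33 was compared with P3 to follow both genomes to the end of the course. Nuclear respiratory chain mRNAs were lower in every complex at P33, while the mitochondrially encoded ones were not lower as a group. Of the 81 nuclear members tested, 56 fell and 3 rose (edgeR quasi-likelihood test, Benjamini-Hochberg adjusted p under 0.05 over all 16821 genes). Among all genes tested, 67.8% were called in this comparison and 33.3% were called lower. The median log2 fold change of the 69 nuclear members with enough reads was -0.71, and 9 of them fell by at least 2-fold. In 55 of the 56 that fell, all P33 libraries lay below all P3 libraries. The share of all genes separated in this way is not given here, so this count does not set the members apart. Of the 13 mitochondrial mRNAs, 3 rose and 2 fell, with a median of 0.01. In bulk RNA, fewer cells of a type and less RNA per cell cannot be told apart.

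**Figure D1:**
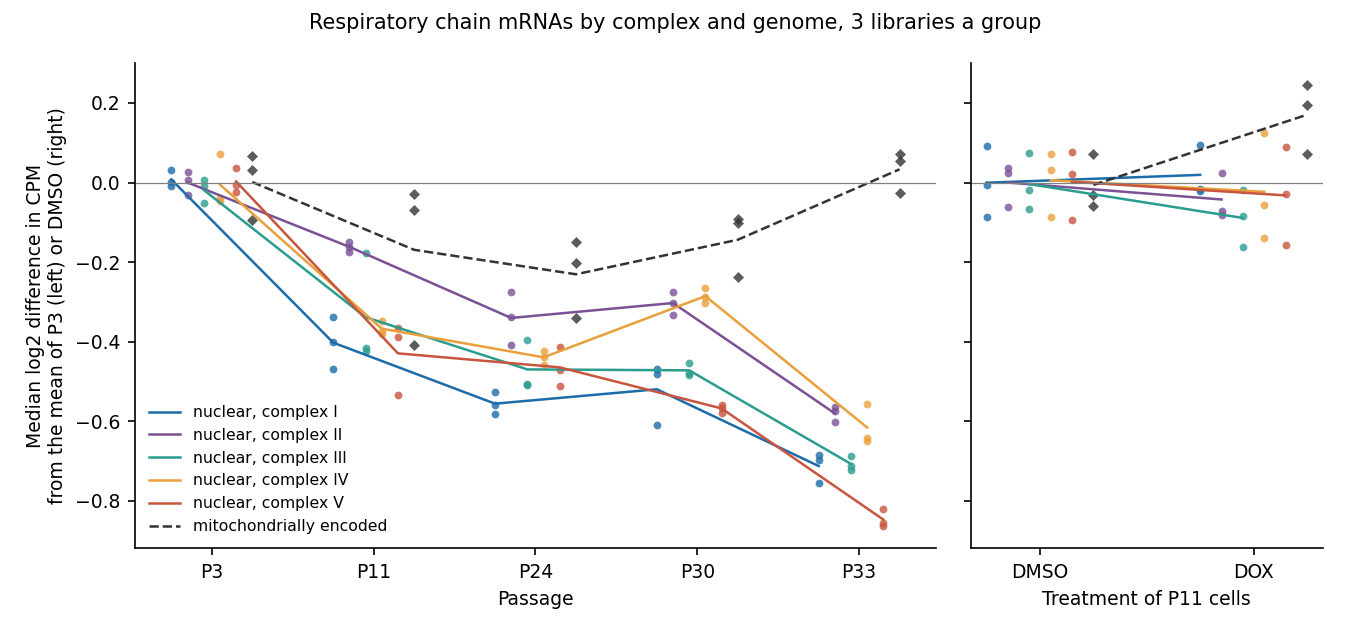
Median log2 difference in CPM of each group of members in every library (points) and the mean over 3 libraries (lines), relative to the mean of P3 for the passages and to the mean of DMSO for the treated cells. Circles are nuclear members by complex and diamonds the 13 mitochondrially encoded members. All 5 nuclear complexes lie below 0 at every later passage, with median fold changes against P3 from -0.16 (complex II at P11) to -0.85 (complex V at P33). In the DOX libraries the nuclear medians run from -0.16 (complex III, replicate 3) to 0.12 (complex IV, replicate 2). The mitochondrial medians there run from 0.07 to 0.24.

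Complex I takes electrons from NADH. Of its 36 tested nuclear members 24 fell and 2 rose, with a median of -0.70 among 30 with enough reads. All 7 nuclear core subunits fell, between -0.85 and -0.41 on the log2 scale. Most of these carry the flavin or iron-sulfur clusters or line the ubiquinone pocket. NDUFV2, at -0.41, had low levels (3.34 CPM at P3 and 2.52 CPM at P33) and was not called at P33 against P11 (0.37 ± 0.18). NDUFV1, which binds the flavin that accepts electrons from NADH, was at 85.0, 82.6 and 80.5 CPM in the P3 libraries and 53.6, 52.5 and 52.9 at P33. The P33 libraries were all lower, by -0.64 ± 0.07 (log2, SE; adjusted p = 6.87e-10).

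NDUFS5, an accessory subunit of the membrane arm, was the most lowered complex I member. Its level was 384, 381 and 384 CPM at P3 and 157, 163 and 167 CPM at P33. The groups were far apart, and the fold change was -1.24 ± 0.07 (adjusted p = 4.94e-17). NDUFB9, another membrane-arm accessory subunit, fell from 73.9 ± 4.13 to 32.8 ± 0.645 CPM (SD, n = 3 libraries; edgeR adjusted p = 5.2e-16). NDUFA1, a small accessory subunit needed for assembly, fell from 50.3 ± 2.47 to 23.4 ± 1.51 CPM (edgeR adjusted p = 1.74e-13).

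NDUFA12, an accessory subunit at the junction of the 2 arms, went the other way. It was at 43.3, 45.2 and 49.3 CPM at P3, at 95.8, 83.2 and 87.7 at P11, and at 65.5, 71.6 and 75.1 at P33. Every later library was above every P3 library, and P33 was higher by 0.62 ± 0.07 (adjusted p = 7.22e-10). The peak was at P11, not at the end. NDUFA13 also rose, from 0.727 ± 0.0505 to 1.24 ± 0.0619 CPM (edgeR adjusted p = 0.0148), but it overlaps another gene on the same strand and its level is uncertain.

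Complex II oxidises succinate and belongs to the citric acid cycle as well. SDHB, its iron-sulfur subunit, was at 60.1, 66.6 and 61.9 CPM at P3 and 34.6, 38.3 and 34.6 CPM at P33. The libraries did not overlap, with a fold change of -0.81 ± 0.07 (adjusted p = 1.54e-12). SDHC, a membrane anchor, fell by 0.35 ± 0.08 on the log2 scale (adjusted p = 0.000343). SDHA and SDHD, the flavin subunit and the other anchor, had too few reads in the passage libraries.

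Complex III passes electrons from ubiquinol to cytochrome c. Of its 9 nuclear members 6 fell and 0 rose. UQCR10, one of its small subunits, was at 62.7, 84.2 and 74.4 CPM at P3 and 36.5, 33.6 and 32.1 CPM at P33, with no overlap and a fold change of -1.11 ± 0.10 (adjusted p = 7.64e-12). UQCRB, which lies at the ubiquinone site, fell from 167 ± 6.13 to 87.1 ± 2.14 CPM (edgeR adjusted p = 8.01e-16), and UQCRC1, a large core subunit, from 105 ± 1.89 to 63.9 ± 1.21 CPM (edgeR adjusted p = 7.33e-12). UQCRFS1, the Rieske iron-sulfur protein, fell by 0.43 ± 0.08 on the log2 scale. UQCRHL, a near-identical copy of UQCRH, had the lowest fold change of all members (-1.87 ± 0.22), from a level of 2.84 CPM, and reads cannot be told apart with certainty between the copies. UQCRH itself, the hinge protein that docks cytochrome c1, fell by 0.71 ± 0.07.

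UQCRC2, the other large core subunit, had no stable level at P3, where its libraries read 50.8, 37.0 and 84.6 CPM. At P33 they read 60.3, 69.8 and 51.3 CPM, inside that range, and the difference was 0.09 ± 0.15 (adjusted p = 0.656). It was called higher at P11, P24 and P30 against P3, with libraries that overlapped those of P3 each time. P3 replicate 3 alone reached into those ranges.

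Complex IV reduces oxygen. Of 14 nuclear members tested, 9 fell and 1 rose. COX7A2, the form of subunit 7A found in most tissues, was at 40.4, 44.8 and 40.7 CPM at P3 and 21.1, 19.1 and 19.8 CPM at P33. The groups were apart, with a fold change of -1.07 ± 0.08 (adjusted p = 3.96e-13). COX5B, a zinc-binding subunit on the matrix side, fell from 42.7 ± 5.37 to 22.7 ± 0.765 CPM (edgeR adjusted p = 2.56e-11). COX7B, a small membrane subunit, fell from 92.7 ± 4.08 to 52.4 ± 2.58 CPM (edgeR adjusted p = 2.16e-12).

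The alternative forms of complex IV subunits did not move together. COX4I1, the common form of subunit 4, fell from 525, 528 and 502 CPM to 311, 330 and 315 CPM (-0.70 ± 0.07; adjusted p = 2.76e-10). COX7A1, the form typical of heart and skeletal muscle, was at 7.53, 12.1 and 9.03 CPM at P3 and 11.3, 12.6 and 10.5 CPM at P33. These libraries overlap, and the difference of 0.26 ± 0.12 did not pass (adjusted p = 0.0619). NDUFA4L2, a paralog of NDUFA4 known to respond to low oxygen, rose from 0.415 ± 0.0774 to 1.62 ± 0.239 CPM (edgeR adjusted p = 1.24e-06), while NDUFA4 itself had a difference of -0.05 that did not pass. COX6B1, the common form of a subunit facing cytochrome c, fell from 33.7 ± 2.14 to 19.9 ± 1.35 CPM, most of it after P30 (-0.55 ± 0.09 in the last step). COX7A2L, which links complexes III and IV, fell by only 0.26 ± 0.08, and with genes of 10 CPM or more it was not called (adjusted p = 0.16).

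Complex V makes ATP. Of its 18 tested nuclear members 15 fell and 0 rose, and its median of -0.85 was the lowest of the 5 complexes. All 5 subunits of its F1 head fell, between -1.17 and -0.68. ATP5F1B, the catalytic beta subunit, was at 294, 296 and 305 CPM at P3 and 189, 191 and 180 CPM at P33, a fold change of -0.68 ± 0.06 (adjusted p = 2.25e-11). ATP5F1E, the epsilon subunit of the central stalk, fell further, from 56.2, 68.8 and 61.7 CPM to 29.7, 27.0 and 26.2 CPM (-1.17 ± 0.07; adjusted p = 3.76e-15). In both genes the P33 libraries lay below every P3 library.

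In the membrane part, ATP5ME, the e subunit that helps pair 2 synthases, was at 41.5, 45.7 and 38.6 CPM at P3 and 15.5, 19.8 and 16.8 CPM at P33. This was the lowest fold change in complex V, -1.28 ± 0.08 (adjusted p = 4.48e-15). ATP5MC3, 1 of the genes for the proton-carrying ring subunit, fell from 59.3 ± 3.05 to 30.5 ± 2.4 CPM (edgeR adjusted p = 4.63e-13). The other genes for the same ring subunit fell less, ATP5MC2 by 0.56 ± 0.07 and ATP5MC1 by 0.35 ± 0.10. ATP5F1C, the rotating gamma subunit, fell from 140 ± 1.96 to 72.6 ± 5.43 CPM. ATP5IF1, the protein that blocks the synthase from running backwards, fell from 113 ± 5.43 to 59.0 ± 2.23 CPM (edgeR adjusted p = 1.69e-11).

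**Figure D2:**
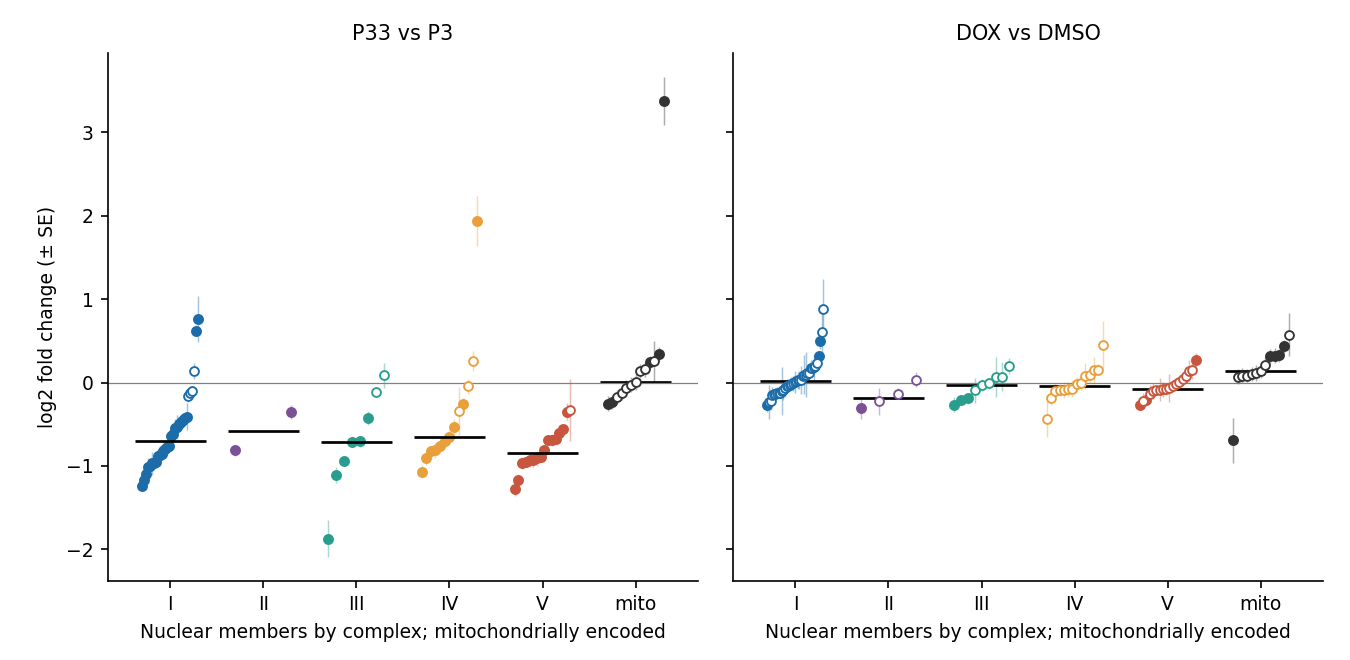
Log2 fold change (points, with SE bars) of every member with enough reads, at P33 against P3 (left) and with DOX against DMSO (right), sorted within each complex. Filled points passed the test, open points did not, and black bars are medians. The nuclear medians lie between -0.85 and -0.58 on the left and between -0.18 and 0.01 on the right.

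Shorter genes fell more than longer ones among all protein-coding genes, and the members are mostly short. Protein-coding genes outside the set had a median log2 fold change of -0.35 at spans up to 5 kb and 0.04 above 50 kb. In the same classes the nuclear members had medians of -0.91 (13 members) and -0.36 (4 members). Between 10 and 20 kb the values were -0.11 for the other genes and -0.82 for 18 members. Across the 69 members, span and fold change had r = 0.17 and rho = 0.227, over genes that share all libraries. The part of gene length in the result was not tested. Among the 50 nuclear members that overlap no other gene on the same strand, 41 fell and 2 rose, with a median of -0.81. Of the 8 mitochondrial members without such an overlap, 1 rose and 1 fell, with a median of 0.06. The other 5 mitochondrial members include MT-ND4, MT-ND4L and MT-CO3. Promoter letters could be set beside the P33 fold changes for 56 members with a window and enough reads. The medians with and without the letters were -0.80 and -0.70 for NRF1, -0.70 and -0.74 for ETS, -0.81 and -0.69 for YY1, -0.71 and -0.73 for the GC box and -0.65 and -0.80 for CCAAT. Of the members with YY1 letters 8 of 8 fell, and of those without 38 of 48. None of these differences was tested.

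The earlier passages show that much of the fall was already present at P11, the first passage sampled after P3. Each passage is a single group of libraries, so any batch difference between groups cannot be told apart from passage. At P11 against P3, 51 nuclear members fell and 4 rose (median -0.38), with 46.5% of all genes called and 23.6% called lower. At P24 against P3, 56 fell and 3 rose (median -0.52), with 54.4% of all genes called and 27.8% lower. At P30 against P3, 52 fell and 5 rose (median -0.51), with 58.6% and 29.6%. These comparisons share the P3 libraries. When P33 was instead compared with P11, a choice made after the data were seen because P3 serves all of them, 52 members fell and 5 rose (median -0.37), with 57.4% of all genes called and 29.7% lower.

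The steps between neighbouring passages were unequal. From P11 to P24, 19 nuclear members fell and 1 rose (median -0.15; 33.6% of all genes called, 17.7% lower), but without P24 replicate 3 only 10 fell and 1 rose. From P24 to P30, 3 fell and 8 rose (median 0.03; 35.1% called, 17.1% lower), and without P24 replicate 3, or without P30 replicate 1, 2 fell and 5 rose. From P30 to P33, 35 fell and 2 rose (median -0.21; 48.4% called, 24.8% lower). The median fell most between P3 and P11 and between P30 and P33.

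UQCRB followed this course. It was at 174, 162 and 166 CPM at P3, 127, 128 and 122 at P11, 108, 115 and 99.1 at P24, 114, 115 and 115 at P30, and 84.9, 87.2 and 89.2 at P33. The P30 libraries overlap those of P24 and are above all of P33, and the last step was -0.40 ± 0.06 (adjusted p = 6.54e-07). COX4I1 fell to 355, 383 and 302 CPM at P24, stood at 445, 424 and 420 CPM at P30 and then fell again. Its rise from P24 to P30 was 0.31 ± 0.07 (adjusted p = 0.00082). NDUFC1, a small accessory subunit of complex I, instead rose in both middle steps, by 0.38 ± 0.11 and 0.50 ± 0.10, from 9.69 ± 0.807 CPM at P11 to 18.0 ± 2.21 CPM at P30. COX7A1 rose from P24 to P30 as well, by 0.73 ± 0.13 (adjusted p = 4.00e-05).

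**Figure D3:**
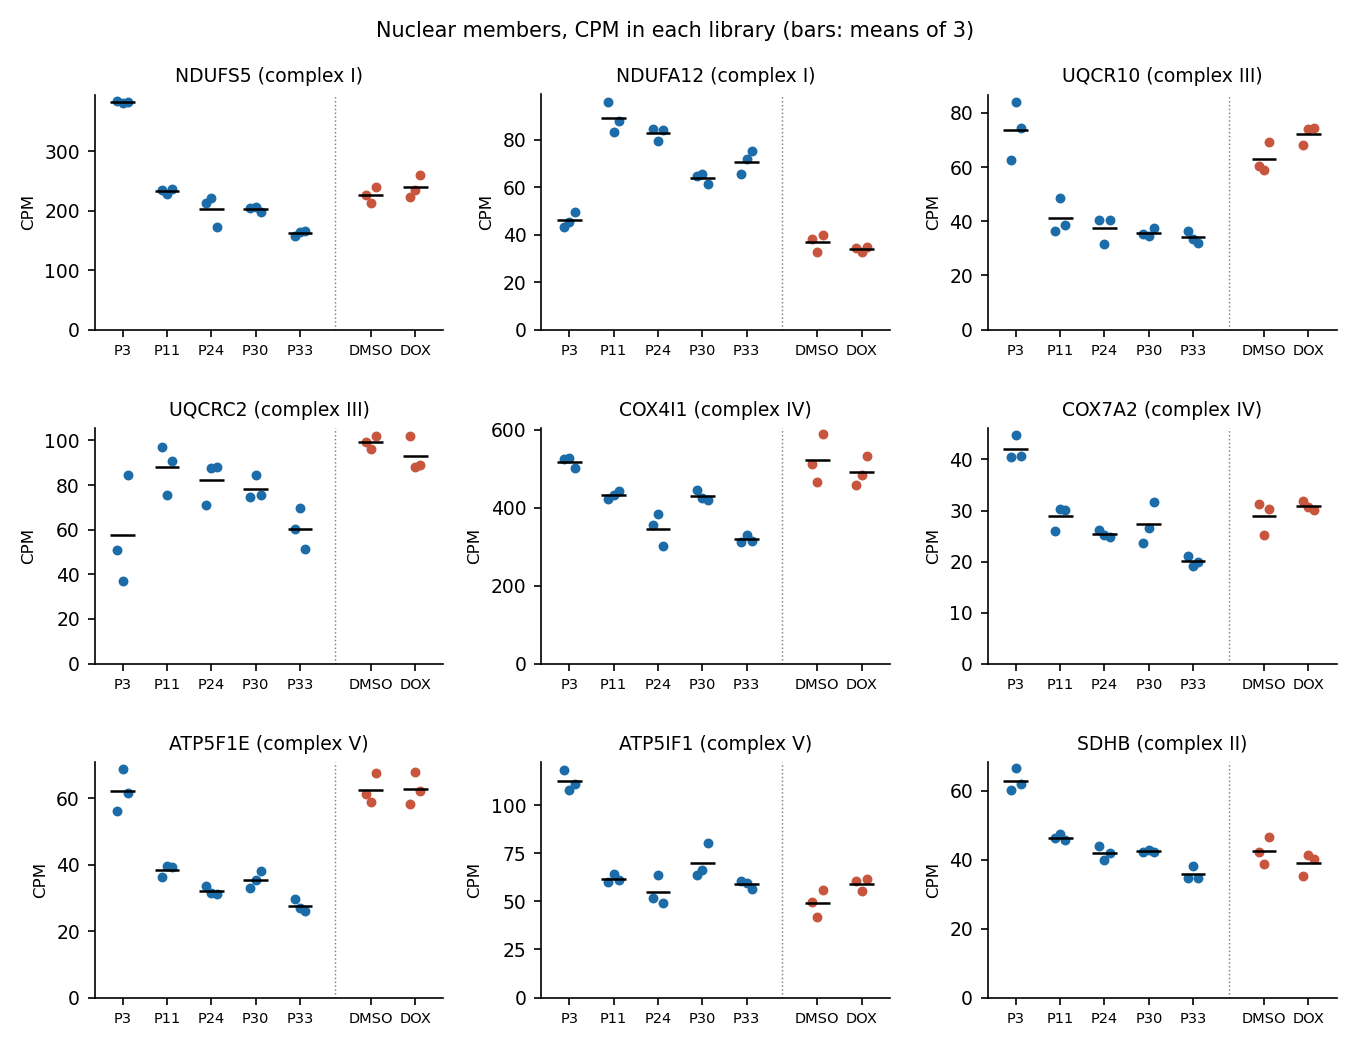
CPM of 9 nuclear members in each of the 21 libraries (points) with group means (bars). The dotted line divides the passage libraries from the DOX and DMSO libraries, whose levels are not comparable across it. NDUFS5, ATP5F1E and SDHB step down at P11 and again at P33, and NDUFS5 and ATP5F1E also at P24 (-0.20 and -0.27 against P11). NDUFA12 is highest at P11, and UQCRC2 is scattered at P3.

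The 13 mitochondrial mRNAs followed another course. Together they made up 3.99 ± 0.145% of counts at P3, 3.83 ± 0.557% at P11, 3.74 ± 0.316% at P24, 3.73 ± 0.164% at P30 and 4.78 ± 0.111% at P33. The nuclear members made up 0.496 ± 0.00746% at P3 and 0.347 ± 0.00486% at P33. The ratio of summed mitochondrial to summed nuclear CPM was 8.05 ± 0.411 at P3, 9.01 ± 1.52 at P11, 9.99 ± 0.746 at P24, 10.2 ± 0.579 at P30 and 13.8 ± 0.314 at P33. The P33 ratio is above the others by more than the spread between libraries. Both sums are led by a few abundant genes.

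Complex I mRNAs of the mitochondrial genome were not alike at P33. MT-ND4, a proton-pumping subunit, was at 4896, 4093 and 4484 CPM at P3 and 5764, 5633 and 5691 CPM at P33, with no overlap (0.34 ± 0.09; adjusted p = 0.00106). MT-ND5, the pumping subunit at the far end of the membrane arm, was at 6086, 5210 and 5388 CPM and then 6672, 6409 and 6694 CPM (0.25 ± 0.08; adjusted p = 0.00589). MT-ND1, next to the ubiquinone site, had a difference of -0.17 ± 0.08 that did not pass (adjusted p = 0.0607), though it passed without P3 replicate 2 (adjusted p = 0.012). MT-ND2, MT-ND3 and MT-ND4L, membrane subunits of the same arm, differed by -0.03, -0.06 and 0.01 and did not pass, nor did MT-ND6 at 0.26 ± 0.24. MT-ND4L and MT-ND4 overlap on the same strand and share a transcript, so reads in the overlap can be assigned to either. The sum of both was 5423 ± 378 CPM at P3 and 6634 ± 121 CPM at P33.

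Of the complex IV mRNAs, MT-CO2, which receives electrons from cytochrome c, was at 4114, 3825 and 4417 CPM at P3 and 3400, 3394 and 3588 CPM at P33. It fell by 0.25 ± 0.09 on the log2 scale (adjusted p = 0.0164), a call lost without P3 replicate 3 or P33 replicate 2 (adjusted p = 0.077 and 0.061) and with DESeq2 (0.076). MT-CO3, a structural core subunit, fell by 0.23 ± 0.08 (adjusted p = 0.0119). With only genes at 10 CPM or more, a filter that also moves the median of all genes by 0.125, MT-CO2 and MT-CO3 did not pass (adjusted p = 0.26 and 0.27). MT-CO1, the catalytic subunit, and MT-CYB, the cytochrome b of complex III, had differences of 0.14 and 0.16 that did not pass.

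MT-ATP8, a small membrane subunit of complex V, had the highest fold change of all members and is the least certain of them. It was at 45.5, 36.0 and 42.2 CPM at P3 and 451, 496 and 340 CPM at P33, and 282 to 830 CPM in the passages between. Its gene overlaps MT-ATP6 on the same strand, and the 2 share a transcript, so reads in the overlap can be assigned to either. The sum of both was 2910 ± 176 CPM at P3 and 3069 ± 82.6 CPM at P33, and MT-ATP6 alone had a difference of -0.12 ± 0.09 (adjusted p = 0.236).

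Per kilobase, the mitochondrial mRNAs had a steep order. At P3 MT-CO1 stood at 6689 CPM per kb, MT-CO3 at 6261, MT-CO2 at 6021 and MT-ATP6 at 4213, followed by MT-ND4 at 3259 and MT-ND1 at 3243. MT-ND6, the sole member on the light strand of mitochondrial DNA, stood at 130 CPM per kb. Its libraries varied widely, from 39.2 to 83.0 CPM at P3.

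**Figure D4:**
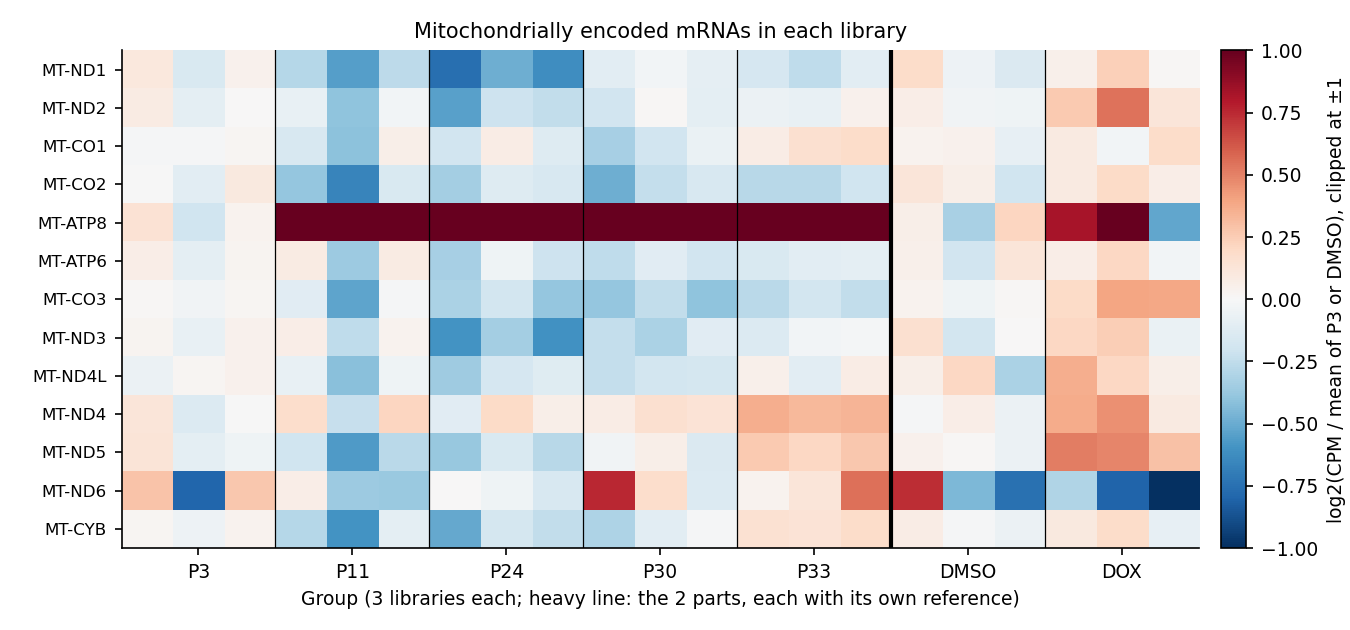
Log2 ratio of each mitochondrially encoded mRNA to its mean at P3 (15 passage libraries) or with DMSO (6 libraries), in genome order, with colours clipped at 1 in either direction. By group mean most mRNAs are below P3 at P11 and P24. At P11 this is mainly replicate 2 (median -0.41, against -0.07 and -0.03 in replicates 1 and 3). MT-ND4 and MT-ND5 are above P3 at P33, as are MT-CO1 and MT-CYB, which did not pass. MT-ATP8 is far above P3 at every later passage.

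At P11 against P3, 5 mitochondrial mRNAs fell (MT-ND1, MT-ND5, MT-CO2, MT-CO3 and MT-CYB, by 0.20 to 0.38) and MT-ATP8 rose, where 46.5% of all genes were called. Leaving out 1 library in turn gave 3 to 6 falls there. At P24 against P3, 6 fell, MT-ND1 most (-0.62 ± 0.08), with 54.4% of all genes called. At P30 against P3 (58.6% of all genes called), 4 fell, and the 5 calls, MT-ATP8 included, became 2 without P30 replicate 1 and 3 without P3 replicate 1, P3 replicate 3 or P30 replicate 2. From P11 to P24 MT-ND1 and MT-ND3 fell (33.6% of all genes called), with 1 call left without P11 replicate 1 or P24 replicate 1, and 5 calls without P11 replicate 2. P11 replicate 2 was low in most of these mRNAs (MT-CO3 at 3403 CPM against 4527 and 4857).

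From P24 to P30, 4 mitochondrial mRNAs rose (MT-ND1, MT-ND2, MT-ND3 and MT-ND5) and 0 fell, which is near the 35.1% of all genes called. Only 1 of these calls was left without P24 replicate 1, and 2 without P24 replicate 3, P30 replicate 2 or P30 replicate 3. From P30 to P33, MT-CO1, MT-ND4, MT-ND5 and MT-CYB rose, by 0.22 to 0.33, and 0 fell, with 2 rises left without P30 replicate 1. That is 4 of 13, in a step where 48.4% of all genes were called. Against P11, 4 were higher at P33 and 0 lower, with 57.4% of all genes called.

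Other genes of the pathway were grouped by role. Their counts at P33 against P3 stand beside 67.8% of all genes called and 33.3% called lower. Of 14 citric acid cycle genes, 13 fell and 0 rose (median -0.57), among them SUCLG2, a succinyl-CoA synthetase subunit, from 61.3 to 26.7 CPM and FH, fumarase, from 61.6 to 30.2 CPM. Of 51 tested assembly factors, 21 fell and 12 rose (median -0.17 over 44 with enough reads). NDUFAF8, a complex I assembly factor, rose from 23.7 ± 1.4 to 104 ± 8.6 CPM, and COX20, which helps insert MT-CO2, fell from 114 ± 11 to 44.6 ± 1.8 CPM. Of 35 genes for mitochondrial DNA and RNA upkeep, 12 fell and 10 rose (median -0.11 over 32 with enough reads). HSD17B10, a subunit of mitochondrial RNase P, fell by 1.40 on the log2 scale and TFAM, which packages and transcribes mitochondrial DNA, by 0.30. Coenzyme Q synthesis had 6 lower and 1 higher of 12.

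Of 16 tested regulators, 6 rose and 3 fell. By smallest p, CHCHD2, NRF1 and PPARD came first, of which only NRF1 is described here. The 3 that fell are not described singly. NRF1 rose from 16.5 ± 0.77 to 30.6 ± 1.3 CPM (edgeR adjusted p = 3.33e-12) and YY1 by 0.28, whereas GABPA differed by -0.02 and did not pass. PPARGC1A, the coactivator PGC-1alpha, stood at 2.88 and 2.87 CPM. NDUFAB1, the mitochondrial acyl carrier protein that is also a complex I subunit, and CYC1, the cytochrome c1 of complex III, are outside the naming rule, and both fell, by 0.37 and 0.32. CYCS, cytochrome c itself, rose by 0.15, a call lost without P33 replicate 3 (adjusted p = 0.22) or without any single P3 replicate (0.069 to 0.088).

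DOX was compared with DMSO in the P11 cells to see how the same genes differ with the drug. Few nuclear members moved. Of 81 tested, 3 rose and 7 fell, with a median of -0.02, in a comparison where 37.3% of all genes were called. Complex IV had 0 calls among its 14 members (edgeR). Without DOX replicate 2 the count was 17, with 14 lower and 3 higher, and without DMSO replicate 3 the balance turned, with 3 lower and 6 higher (median 0.02). With only genes at 10 CPM or more 6 were lower and 8 higher. None of the changes reached 2-fold.

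NDUFC1 had the highest called fold change. Its libraries were at 10.3, 10.7 and 12 CPM with DMSO and 15, 17.6 and 14 CPM with DOX, without overlap (0.50 ± 0.11; adjusted p = 0.00026). NDUFV3, an accessory subunit beside the flavin site, was at 50.9, 51.5 and 52.6 CPM and then 64.2, 60.8 and 67.7 CPM (0.31 ± 0.06; adjusted p = 9.50e-05). ATP5IF1 was at 49.6, 42 and 56 CPM with DMSO and 60.5, 55.5 and 61.9 CPM with DOX. These overlap, and its rise of 0.27 ± 0.09 (adjusted p = 0.0158) did not pass without DOX replicate 1, DOX replicate 3 or DMSO replicate 2 (adjusted p = 0.056, 0.069 and 0.12).

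Of the 7 that fell, ATP5F1A, the alpha subunit of the F1 head, was at 332, 274 and 311 CPM with DMSO and 258, 271 and 232 CPM with DOX (-0.27 ± 0.06; adjusted p = 0.00042). Complex III gave 3 of them. UQCRB fell from 222 ± 13.9 to 191 ± 7.43 CPM (edgeR adjusted p = 0.0023), a call that no left-out library removed. UQCRFS1 and UQCRQ fell by 0.26 and 0.19 on the log2 scale, each no longer called without DMSO replicate 3 (adjusted p = 0.071 and 0.10), nor UQCRFS1 without DOX replicate 1 (0.092) or UQCRQ without DOX replicate 3 (0.12).

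NDUFS7, which carries the last iron-sulfur cluster before ubiquinone, fell by 0.27 ± 0.09 and was not called without DOX replicate 3 or DMSO replicate 3 (adjusted p = 0.072 and 0.15). ATP5MC2, another ring subunit gene, fell by 0.21 ± 0.06 and was not called without DOX replicate 1 (0.064). SDHA, at 6.07 ± 0.85 and 5.23 ± 0.618 CPM, did not pass (edgeR adjusted p = 0.297). SDHD was at 25.2, 21.8 and 24.1 CPM with DMSO and 19.6, 21.5 and 16.3 CPM with DOX (-0.31 ± 0.12; adjusted p = 0.044). Its call was lost without DOX replicate 1 or 3, or DMSO replicate 1 or 3 (adjusted p = 0.069, 0.21, 0.16 and 0.092).

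Among the 13 mitochondrial mRNAs 4 rose and 1 fell with DOX (median 0.13), a share called near the 37.3% of all genes. Their share of counts was 4.63 ± 0.197% with DMSO and 5.32 ± 0.156% with DOX, and their ratio to the nuclear members was 12.2 ± 1.12 and 14.3 ± 0.536. Without DOX replicate 2 there were 3 rises and no fall. Among the 8 of these mRNAs whose genes overlap no other gene on the same strand, 2 rose and 1 fell with all libraries.

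MT-ND5 was at 5425, 5326 and 5071 CPM with DMSO and 7528, 7413 and 6475 CPM with DOX, with no overlap (0.44 ± 0.08; adjusted p = 2.71e-05). MT-CO3 was at 7127, 6773 and 7015 CPM and then 7976, 9153 and 9111 CPM (0.33 ± 0.08; adjusted p = 0.00158). MT-ND4 rose by 0.31 ± 0.09, and MT-ND2, a further pumping subunit, by 0.32 ± 0.09, the latter not called without DOX replicate 2 (adjusted p = 0.089). The sum of MT-ND4L and MT-ND4 was 4505.5 ± 324 CPM with DMSO and 5527.6 ± 651 CPM with DOX, and these libraries overlap. MT-ND6 fell by 0.69 ± 0.27 (adjusted p = 0.0439), but its DMSO libraries were at 69.8, 30.7 and 25 CPM and those with DOX at 34, 24 and 20.4 CPM. Without DMSO replicate 1 the difference did not pass (adjusted p = 0.85), nor without DOX replicate 2 or 3 (0.11 and 0.17) or with DESeq2 (0.17).

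Among the other pathway genes, set beside the same 37.3%, assembly factors were 11 higher and 1 lower of 51 with DOX, with NDUFAF8 up by 0.72 ± 0.09 and NDUFAF6, another complex I assembly factor, by 0.67 ± 0.09. Of the citric acid cycle genes 5 of 14 fell, SUCLG2 by 0.51 ± 0.06. Coenzyme Q synthesis had 4 higher and 0 lower of 12, and the upkeep genes 2 and 2 of 35. Of the regulators 5 fell and 0 rose: PPARGC1A went from 16.9 ± 0.82 to 10 ± 0.82 CPM (edgeR adjusted p = 1.04e-06), PPARGC1B, YY1 and PPARA also fell, and NRF1 fell by 0.24 ± 0.08, a call lost without DOX replicate 1 or DMSO replicate 1 (adjusted p = 0.14 and 0.13). NDUFAB1 rose by 0.31 ± 0.08.

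The effects of DOX and of late passage were then compared directly, as the difference of the DOX effect and the P33 effect, which sets no level of one part against the other. For 54 nuclear members the DOX effect was the higher, and for 2 (NDUFA12 and NDUFA4L2) the lower, with 51.2% of all genes called and 25.8% called higher. The median difference was 0.67. The P33 effect here is against P3, whereas the treated cells were at P11. With the P33 effect taken against P11, a choice made after the data were seen, 37 were the higher and 2 (NDUFA4L2 and COX7A1) the lower, with a median of 0.32, 37.9% of all genes called and 19.6% called higher. NDUFA12 was lower at P33 than at P11 (-0.33 ± 0.07; adjusted p = 5.90e-05), and its difference from the DOX effect then did not pass (0.20; adjusted p = 0.105). Of the 56 members that fell at P33, 46 were not called with DOX and differed between the effects, and 5 fell in both: NDUFS7, UQCRB, UQCRFS1, ATP5F1A and ATP5MC2. The matching shares over all genes are not given here, so whether these joint counts are unusual cannot be told. NDUFS5 and UQCR10 each differed by 1.31 (SE 0.09 and 0.14), with DOX effects of 0.08 and 0.20 that did not pass. Against P11 these differences were 0.60 and 0.47 (adjusted p = 3.94e-06 and 0.0068).

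Opposite calls were made for ATP5IF1, lower at P33 and higher with DOX, which differed by 1.2 ± 0.12 (adjusted p = 7.02e-10), and for MT-CO3, lower at P33 and higher with DOX, by 0.56 ± 0.11 (adjusted p = 0.000117). These opposite calls hold against P3. At P33 against P11 neither gene was called (-0.07 and -0.03; adjusted p = 0.542 and 0.812), and the differences from the DOX effect were 0.34 and 0.36 (adjusted p = 0.0309 and 0.0134). The P33 call of MT-CO3 was also lost with the 10 CPM filter (adjusted p = 0.27), and its gene overlaps another on the same strand. Of the mitochondrial mRNAs the DOX effect was the higher for 4 (MT-ND1, MT-ND2, MT-CO2 and MT-CO3) and the lower for 2 (MT-ATP8 and MT-ND6). That is 46.2% of them called, where 51.2% of all genes were called. Without DOX replicate 2 only 3 of these 6 were called, and against P11 the DOX effect was the higher for MT-CO3 and the lower for MT-ND6 and MT-CYB. For MT-ND4 and MT-ND5, which rose under both, the differences of -0.03 and 0.19 did not pass (adjusted p = 0.91 and 0.148).

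**Figure D5:**
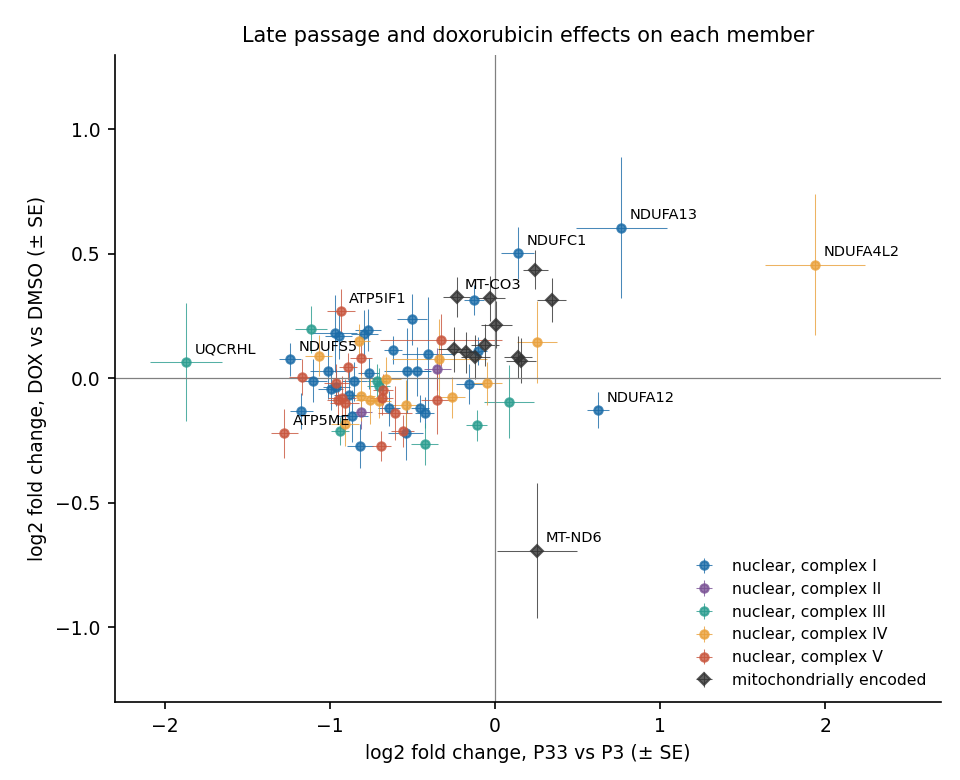
Log2 fold change of each member with enough reads in both parts at P33 against P3 (horizontal) and with DOX against DMSO (vertical), each with its SE, coloured by complex, with diamonds for mitochondrial mRNAs; MT-ATP8, at 3.38 horizontally, is left out. Nuclear members spread to the left along a DOX effect near 0, with NDUFA12, NDUFA13 and NDUFA4L2 on the right.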

How the data were processed

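Whole-number read counts per gene were made by the authors and deposited without normalization, as 1 table of 61544 genes and 21 libraries. Per the labels' protocols, poly(A) RNA (the molecule field says genomic DNA) was primed with random hexamers and amplified by 18 PCR cycles. The submitters' processing notes name FastQC 0.11.9, cutadapt 3.3, HISAT2 2.1.0, SAMtools 1.11, Subread, featureCounts 2.0.1 and DESeq2 1.34.0, with hg38 and GRCh38.p13. No source used here gives the counting options, strand among them, so 39 nuclear members that overlap a gene of the opposite strand are uncertain too.

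In R 4.3.3, edgeR 4.0.16 (limma 3.58.1) kept genes by filterByExpr (minimum count 10), scaled libraries by TMM and fitted 1 quasi-likelihood model, a mean for each group, to all 21 libraries (14 residual degrees of freedom). Tests were two-sided, with p-values adjusted by Benjamini-Hochberg over 16821 genes in each of the 9 comparisons and in P33 against P11, alone and in the difference from the DOX effect, both added later, and called under 0.05. The fit was also run on counts simulated with its own estimates of spread and with independent genes. Such a run checks the code and cannot show how well the model suits these data. Fold changes are log2 with SE; levels are mean ± SD of 3 libraries. A member had enough reads where its counts in the compared part passed the same filter. Members fell under named genes as the 3 largest falls and rises per complex at P33 and with DOX and the largest at each step, at 5 CPM or more, with all mitochondrial members, complex II, and alternative forms. From each list of other pathway genes the rule took up to 3 with the smallest p. NDUFV1, ATP5F1B, NDUFA13, UQCRC2, TFAM and GABPA were named after their values were seen. PPARGC1B, PPARA and, among the promoters, ATP5PB were also named outside these rules. Not every gene that the rules took is described. The members, lists and rules were chosen with earlier results of these data known. Alternatives were RLE scaling, no filter, a 10 CPM filter in 3 libraries, the parts fitted apart, a replicate block, DESeq2 1.42.0 and leaving out each library. Same-numbered libraries had correlations from -0.366 to 0.149, and differently numbered DOX and DMSO libraries from -0.405 to 0.299. With 3 libraries a group, these values cannot settle whether replicate numbers pair the libraries.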

Additional observations from a re-analysis of the deposited data

Results flagged for a closer look

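Groups of 3 libraries are too small for a test of single outlying libraries, so what is listed here are members whose response to DOX (against DMSO) differed from their response to late passage (P33 against P3) in the direct test of that difference. Among nuclear members the DOX effect was above the P33 effect for 54 and below it for 2. Among mitochondrial members it was above for 4 and below for 2. Of all genes tested, 51.2% were called in this comparison and 25.8% were called higher. The mitochondrial share called, 46.2%, was below that of all genes. With P33 taken against P11, the passage of the treated cells, nuclear counts were 37 and 2 and mitochondrial counts 1 and 2. There 37.9% of all genes were called and 19.6% were called higher.

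The largest upward differences among nuclear members at 5 CPM or more were those of UQCR10 and NDUFS5, 1.31 on the log2 scale in each. ATP5IF1, the inhibitor of the synthase, was called in opposite directions and differed by 1.2, and MT-CO3 likewise by 0.56. Neither was called at P33 against P11, where the differences from the DOX effect were 0.34 and 0.36. The lowest differences among members at 5 CPM or more were -2.80 for MT-ATP8, whose reads cannot be parted with certainty from those of MT-ATP6, and -0.95 for MT-ND6, whose DMSO libraries ranged from 25 to 69.8 CPM.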

How the results depend on the processing

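Of the counts of called members, 218 values under an alternative stayed within 1.5 times the reported count and 30 did not. The balance of higher and lower calls turned for nuclear members with DOX, with the 10 CPM filter (8 higher, 6 lower) and without DMSO replicate 3 (6 and 3, against 3 and 7 as reported), and for the mitochondrial difference between the DOX and P33 effects with the 10 CPM filter (1 and 2, against 4 and 2) and with P33 taken against P11 (3 calls, 1 higher and 2 lower). Of the values of single named genes, 1949 kept their call, 42 became called and 50 lost it. Without the count filter the mitochondrial calls were 10 at P11 against P3, 9 at P30 and 9 at P33, 5 from P11 to P24, 7 from P24 to P30 and 7 from P30 to P33. With the 10 CPM filter they were 3 at P30 against P3, 2 from P24 to P30 and 3 for the difference between the DOX and P33 effects, and with DESeq2 they were 3 at P30 against P3 and 2 for the difference. Leaving out 1 library in turn gave mitochondrial calls of 2 to 5 (P30 against P3), 1 to 5 (P11 to P24), 1 to 5 (P24 to P30), 2 to 5 (P30 to P33), 3 to 7 (DOX) and 3 to 6 (difference), and nuclear calls of 11 to 22 (P11 to P24), 7 to 10 (P24 to P30) and 9 to 17 (DOX). The cause was not tested. With the replicate block, nuclear calls were 59 at P33 against P3, 11 with DOX and 56 for the difference, and mitochondrial calls 5, 6 and 6; at P24 against P3 the latter were 9 in place of 7. Whether replicate numbers pair libraries could not be settled. Mitochondrial counts rest on 13 genes with small differences between 3 libraries, and members near 1 CPM have wide errors.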
